A study of Cricetulus griseus with 16 samples.

Results

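The proteasome genes of CHO cells, a line from Chinese hamster ovary (ATCC CCL-61), were followed through 3 heat treatments. The members are all genes whose deposited name begins with PSM, a letter from A to G and a number, which gave 41 of the 20824 listed genes. Of these, 40 are subunits, assembly chaperones, activators or the inhibitor of the proteasome, and the other, Psmc3ip, encodes a recombination protein that shares only the first letters of the name. RefSeq lists 9 further names of this pattern for the species, among them Psma6, Psmb3, Psmb6, Psmd10, Psme1, Psme2 and Psmg2, and these were not analysed here.

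The proteasome is the cell's main ATP-dependent protease for proteins tagged with ubiquitin. Its 20S core is a barrel of outer alpha rings (Psma genes) and inner beta rings (Psmb genes), and the beta rings carry the cutting sites. The 19S particle that caps the barrel holds a ring of ATPases (Psmc genes), which unfold the substrate and thread it into the core, and non-ATPase subunits (Psmd genes), which bind ubiquitin and remove it. The products of Psmb8, Psmb9 and Psmb10 can replace the standard catalytic subunits to form the immunoproteasome, which is known for making peptides that are shown on MHC class I molecules. Psmg genes and some Psmd genes encode chaperones of assembly that are not part of the finished particle. Heat unfolds proteins, and misfolded proteins are among the substrates of the proteasome.

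RNA was sequenced from 4 biological repeats in each of 4 groups, namely cells kept at 37 °C, cells held at 40 °C for 1 h, cells held at 40 °C for 6 h and cells held at 42.5 °C for 1 h. Heat was the only treatment, all groups came from 1 cell line, and the repeats are lettered A to D. Total counts were between 10504192 and 14668365 per library. Levels are given in CPM, the counts of a gene scaled to library size and corrected for library composition with edgeR's TMM factors. In such bulk samples a lower level in all cells and fewer cells that express a gene cannot be told apart, and a change of total RNA per cell would not be seen. Levels of different genes were not compared, since no transcript length was used.

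Replicate D of the 37 °C group stood apart from its group. The study compared its heated cells with the other controls, and the library is left out of the comparisons here too. In that library 37 of the 40 tested members were above the mean of replicates A to C, with a median log2 difference of 0.37, against 0.0048 over 10494 genes. Psmd2, Psmd11 and Psme4 were the 3 members below it. The members took 1.06% of all counts in replicate D. In replicates A to C they took 0.893% ± 0.0069 (SD, n = 3), and the heated groups held between 0.876% and 0.894% on average. Results against 37 °C are therefore given without replicate D, and the members still called with all 4 controls are named beside them.

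**Figure D1:**
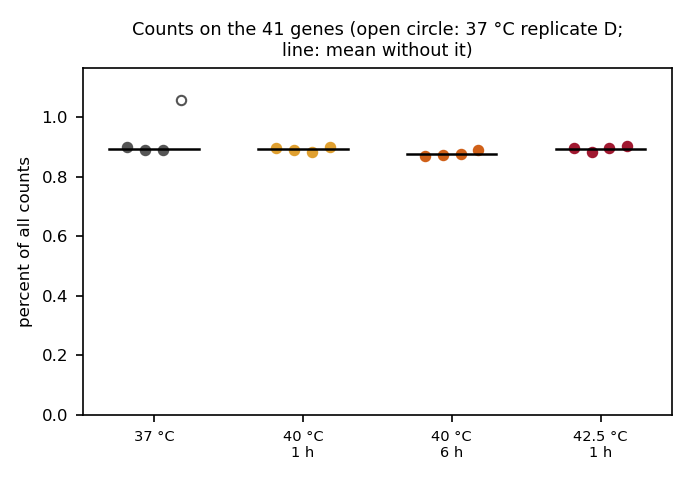
Percent of all counts on the 41 genes in each library (vertical axis) in the 4 groups (horizontal axis), where points are libraries, the line is the group mean without 37 °C replicate D, and the open circle is that library. Replicate D stands at 1.06%, above all other libraries, which lie between 0.869% and 0.902%.

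Other genes were used to describe what the line expresses and to check the treatment. The cell type markers do not identify the line, and the epithelial gene Krt8 was not found by name. The mesenchymal gene Vim averaged 2231 ± 70.5 CPM (SD, n = 3) in the controls, and the epithelial gene Cdh1 had 20 to 48 counts in every library. Epcam and Ptprc had at most 1 count in a library, and the ovarian granulosa genes Foxl2 and Fshr had 0 counts in all 16 libraries, which allows up to 3 counts or 0.205 to 0.286 CPM. The heat shock genes Dnajb1, Hsph1 and Hspb1 rose in all 3 comparisons with 37 °C by edgeR's quasi-likelihood test. Dnajb1, which encodes a co-chaperone of Hsp70, rose by 1.63 on the log2 scale after 1 h at 40 °C, by 0.65 after 6 h at 40 °C and by 3.79 after 1 h at 42.5 °C.

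The members were expressed in every group with little spread between replicates. Of the 41 genes, 40 passed the filter on low counts in each of the 6 comparisons. Psmb11, the beta subunit of the thymus, had 1 count in each of 2 libraries and was not tested. Psma8, an alpha subunit known from the testis, had 4 to 21 counts per library, which leaves its changes poorly measured, and it could share reads with its close relative Psma7. No tested member reached a change of 1.5-fold with an adjusted p under 0.05 in any of the 6 comparisons. For 39 of the 40 tested members, Psma8 being the exception, the 95% interval of the change stayed within 1.5-fold either way in each comparison.

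The make-up of the members' counts changed little between groups. At 37 °C the 19S non-ATPases took 40.7% ± 0.34 of the members' counts, the alpha ring 19.8% ± 0.31, the 19S ATPases 17.2% ± 0.050 and the standard beta ring 13.6% ± 0.10 (SD, n = 3 each). These shares are not corrected for transcript length, and Psma6, Psmb3 and Psmb6 are not among the genes counted. In the heated groups the non-ATPases stayed between 40.5% and 40.7% and the alpha ring between 19.96% and 20.2% on average. Replicate D of the controls differed here too, with 37.8% on the non-ATPases and 21.7% on the alpha ring.

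The share of all tested genes past that same 1.5-fold rule was small to moderate. It was 0.276% higher and 0.0572% lower for 40 °C, 1 h, against 37 °C, then 1.45% and 1.66% for 40 °C, 6 h, and 2.83% and 4.68% for 42.5 °C. Between heated groups it was 0.556% higher and 0.728% lower for 6 h against 1 h at 40 °C. For 42.5 °C it was 1.75% and 3.51% against 40 °C, 1 h, and 2.53% and 5.72% against 40 °C, 6 h. The study called genes at a false discovery rate under 0.05 and a fold change over 1.5, and no member is in its list. Members were therefore counted by the adjusted p alone (edgeR's quasi-likelihood test, Benjamini-Hochberg adjustment over all tested genes, under 0.05). The words rose and fell refer to this call.

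**Figure D2:**
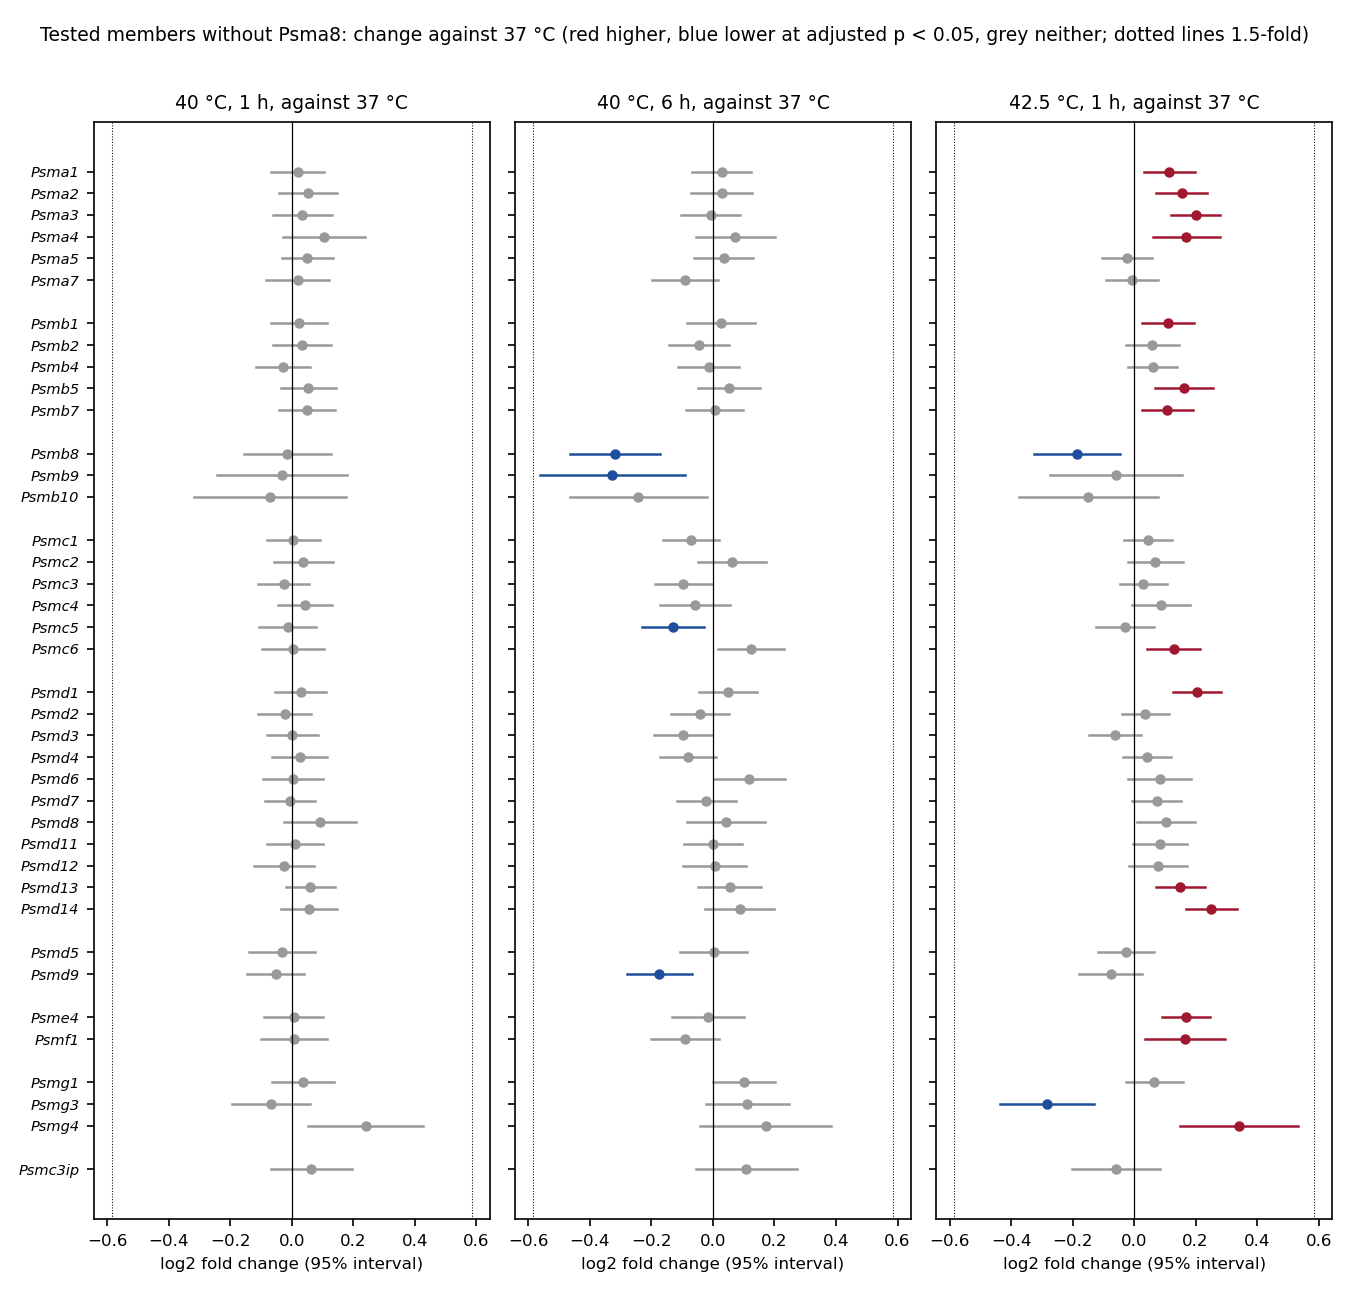
Log2 fold change against 37 °C (horizontal axis) of each tested member but Psma8 (rows, grouped from top to bottom as alpha ring, beta ring, inducible beta subunits, 19S ATPases, 19S non-ATPases, 19S chaperones, activator and inhibitor, 20S chaperones, Psmc3ip) in the 3 heated groups, where bars are 95% intervals. No member is coloured in the left panel, 4 are lower in the middle panel, and 14 are higher and 2 lower in the right panel, all inside the dotted 1.5-fold lines.

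The first comparison asks whether 1 h at the fever-like temperature of 40 °C moved the proteasome genes, and no such change was detected. None of the 40 tested members rose or fell, where 1.07% of all tested genes rose and 0.572% fell. DESeq2 also called 0 members, and 1 member, Psmg4, had an unadjusted p under 0.05. The median log2 fold change of the members was 0.014, beside 0.00036 over all genes tested. The subunit groups lay close to each other, with medians of 0.034 for the alpha ring, 0.034 for the standard beta ring, 0.0044 for the 19S ATPases and 0.0098 for the 19S non-ATPases. With all 4 controls the median of the members was -0.089.

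After 6 h at 40 °C, the inducible subunits Psmb8 and Psmb9 fell, as did Psmd9, a chaperone of the 19S base, and Psmc5, one of the 19S ATPases. In all 4 of the 40 tested members (10.0%) fell and 0 rose, where 14.8% of all tested genes fell and 14.7% rose. Of the 40 members, 9 had an unadjusted p under 0.05 in either direction. DESeq2 called 2 members lower and 0 higher, where it called 1296 and 1274 of all genes. The median of the members was 0.0039, beside 0.0012 over all genes. All heated libraries lay below all control libraries for 8 members and above them for 2, where 17.6% and 18.6% of all tested genes did so.

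Psmb8 encodes the inducible counterpart of the chymotrypsin-like subunit. Its level was 30.9, 34.4 and 32.9 CPM in 37 °C replicates A to C and 26.6, 25.3, 27.2 and 26.1 CPM at 40 °C for 6 h. The groups did not overlap, and replicate D of the controls was higher still, at 42.1 CPM. The log2 fold change of Psmb8 was -0.32 (SE 0.070, 95% interval -0.47 to -0.17, edgeR adjusted p = 0.0026). It was called in each of the 16 fits tried, which gave values from -0.42 to -0.28.

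Psmb9 encodes the inducible counterpart of the caspase-like subunit. Its level was 14.9, 12.4 and 12.3 CPM at 37 °C and 11.4, 9.90, 9.38 and 11.7 CPM at 40 °C for 6 h. All heated libraries were below the controls, but the gap between 11.7 and 12.3 CPM is narrow. The log2 fold change was -0.33 (SE 0.11, edgeR adjusted p = 0.035). With all 4 controls Psmb9 was at -0.40 with an adjusted p of 0.066, and it was called in 10 of 16 fits. In the RefSeq annotation of another build Psmb9 overlaps an entry named Tpt1, and without strand the reads of overlapping genes cannot be told apart.

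Psmb10, the third inducible catalytic subunit, had a log2 fold change of -0.24 (SE 0.11) with an edgeR adjusted p of 0.094, which missed the threshold. Together the inducible subunits took 0.685% ± 0.0075 (SD, n = 3) of the members' counts at 37 °C and 0.661% ± 0.021 (SD, n = 4) after 1 h at 40 °C. The share was also lower at 42.5 °C, at 0.587% ± 0.0061 (SD, n = 4). After 6 h at 40 °C it was 0.560% ± 0.028 (SD, n = 4). By contrast the 5 standard beta subunits had a median log2 fold change of 0.0051, and none of them rose or fell.

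Psmd9 was at 87.8, 88.1 and 86.4 CPM at 37 °C and at 81.3, 74.97, 79.0 and 75.7 CPM after 6 h at 40 °C. The groups did not overlap. Psmd9 changed by -0.17 on the log2 scale (SE 0.050, edgeR adjusted p = 0.015). It was at -0.24 when all 4 controls were used, with an adjusted p of 0.062. Psmc5 changed by -0.13 (SE 0.048, edgeR adjusted p = 0.049), and its control and heated libraries overlapped. Psmc5 was at -0.23 when all 4 controls were used, with an adjusted p of 0.13.

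The calls at 6 h depended on the libraries. Without 37 °C replicate A, without 37 °C replicate B or with all 4 controls, Psmb8 was the single member that fell. Over all genes 1058, 1018 and 556 fell in these settings, in place of 1551. Without 40 °C, 6 h, replicate B or C, Psmb8 and Psmd9 fell, where 1335 and 1273 of all genes did so. Without 40 °C, 6 h, replicate D, Psmc5 was no longer called, and 1399 genes fell. Without 40 °C, 6 h, replicate A, Psmc6 and Psmd14 rose, and without replicate B, Psmd6 rose. There 1685 and 1332 of all genes rose, in place of 1540.

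**Figure D3:**
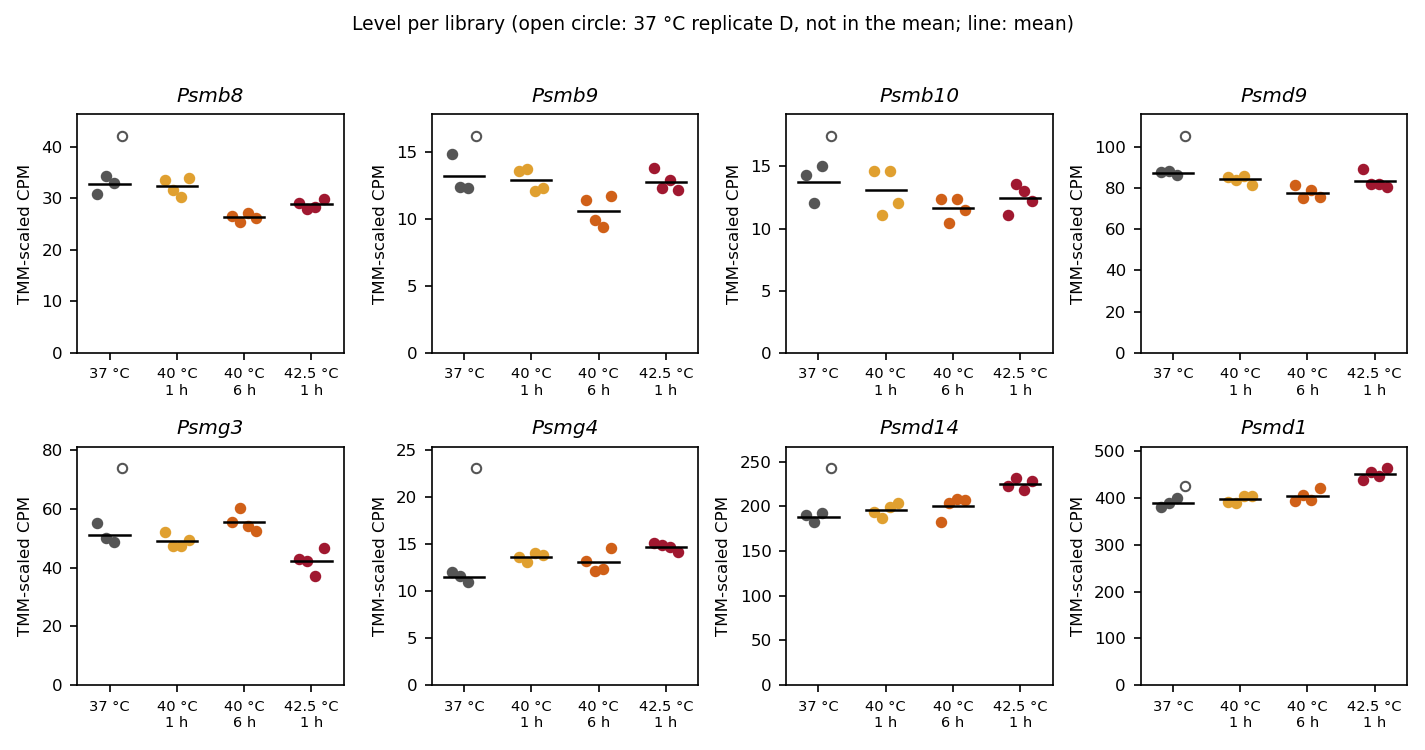
Level in TMM-scaled CPM (vertical axis, from 0) of 8 members in each library of the 4 groups (horizontal axis), where the line is the group mean without 37 °C replicate D and the open circle is that library. Psmb8 and Psmb9 are lowest at 40 °C for 6 h, Psmg3 is lowest at 42.5 °C, and Psmd14 and Psmd1 are highest at 42.5 °C apart from replicate D of the controls for Psmd14.

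At 42.5 °C for 1 h, 14 members were slightly higher than at 37 °C, and Psmg3 and Psmb8 were lower. Of the 40 tested members, 14 rose (35.0%) and 2 fell (5.0%), where 20.8% of all tested genes rose and 22.3% fell. With all 4 controls 2 members rose, where 710 of 10408 tested genes did so. With total counts as the scaling 4 rose and 5 fell, where 1206 and 3290 of 10470 genes did so. The rises were between 7.80% and 26.6% of the control level. The median log2 fold change of the members was 0.072, beside -0.0017 over all genes. Heated and control libraries did not overlap for 14 members above and 2 members below, where 23.1% and 22.9% of all tested genes did so.

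The rises were spread over the parts of the particle. In the alpha ring, Psma1, Psma2, Psma3 and Psma4 rose, 4 of 7 tested. In the standard beta ring 3 of 5 rose, namely Psmb1, Psmb5 and Psmb7, and the last 2 encode catalytic subunits. Psmb5, the chymotrypsin-like subunit, averaged 193 ± 7.54 CPM (SD, n = 3) in the controls and 217 ± 9.18 CPM (SD, n = 4) in the heated libraries, a log2 fold change of 0.16 (SE 0.044, edgeR adjusted p = 0.0081), and with all 4 controls Psmb5 was at 0.058 with an adjusted p of 0.71. Of the 6 ATPases of the 19S cap, Psmc6 alone rose, and the median of the 6 was 0.058. Of 11 non-ATPase subunits, Psmd1, Psmd13 and Psmd14 rose. The activator Psme4, which opens the gate of the core, and the inhibitor Psmf1 both rose, by 0.17 each on the log2 scale. Psmf1 was at 0.12 when all 4 controls were used, with an adjusted p of 0.32. Neither 19S chaperone, Psmd5 or Psmd9, rose or fell, nor did Psmc3ip, at -0.058 (edgeR adjusted p = 0.51).

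Psmd14 encodes the deubiquitinase of the 19S lid, which removes ubiquitin chains from substrates. Its level was 190.7, 182 and 192 CPM in 37 °C replicates A to C and 223, 231, 218 and 228 CPM at 42.5 °C. All heated libraries were above these controls, whereas replicate D of the controls was at 243 CPM. Psmd14 thus rose by 0.25 on the log2 scale (SE 0.039, 95% interval 0.17 to 0.33, edgeR adjusted p = 0.00012). With all 4 controls it was 0.16 with an adjusted p of 0.18.

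Psmd1 encodes a scaffold of the 19S base to which ubiquitin receptors bind. It was at 382, 389 and 400.1 CPM at 37 °C and at 440.0, 456, 447 and 464 CPM at 42.5 °C. No heated library overlapped a control, and replicate D, at 426 CPM, was also below the heated libraries. Psmd1 rose by 0.20 on the log2 scale (SE 0.037, edgeR adjusted p = 0.00042). It was called in each of the 16 fits, and with all 4 controls it was 0.18 with an adjusted p of 0.034.

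Psma3, an alpha ring subunit, was at 273, 269 and 277 CPM at 37 °C and at 306, 313, 315 and 326 CPM after heating at 42.5 °C. The groups did not overlap, and replicate D of the controls was above both at 376 CPM. Psme4 was at 195.8, 196 and 199 CPM at 37 °C and at 219, 219.7, 227 and 225 CPM at 42.5 °C. Again there was no overlap, and here replicate D was the lowest library, at 169.6 CPM. Both were called in 15 of 16 fits, Psma3 not with all 4 controls (0.084, adjusted p = 0.59) and Psme4 not with total counts.

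Psmg3 and Psmg4 encode chaperones that act as a pair in building the alpha ring, and their mRNAs moved in opposite directions at 42.5 °C. Psmg4 was at 12.1, 11.6 and 10.95 CPM at 37 °C and at 15.1, 14.9, 14.7 and 14.2 CPM at 42.5 °C, so that these libraries did not overlap. Psmg4 rose by 0.34 on the log2 scale (SE 0.090, edgeR adjusted p = 0.0066), the largest rise among the called members. This rise rests on leaving out replicate D, where Psmg4 was at 23.0 CPM, since with all 4 controls it was 0.047 with an adjusted p of 0.90.

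Psmg3 was at 55.2, 49.96 and 48.8 CPM at 37 °C and at 43.1, 42.4, 37.1 and 46.7 CPM at 42.5 °C. The heated libraries were all below the controls, and replicate D was the highest of all at 73.8 CPM. The log2 fold change of Psmg3 was -0.28 (SE 0.071, 95% interval -0.43 to -0.13, edgeR adjusted p = 0.0048). It was called in each of the 16 fits, and with all 4 controls it was -0.42 with an adjusted p of 0.045. The remaining chaperone of this kind, Psmg1, was at 0.066 and did not pass the test.

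Psmb8 was at 29.2, 28.02, 28.4 and 29.9 CPM at 42.5 °C, below each control library. Its log2 fold change was -0.19 (SE 0.066, edgeR adjusted p = 0.033), and it was called in 9 of 16 fits. The call was lost without 37 °C replicate B or C, without 42.5 °C replicate A, B or C, by DESeq2 and with all 4 controls, where Psmb8 was at -0.27 with an adjusted p of 0.069. Psmb9, at -0.058, and Psmb10, at -0.15, did not pass the test.

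The number of rises at 42.5 °C depended on the scaling and on the controls. With total counts as the scaling, in which the median of all genes moved to -0.075, 4 members rose (Psma3, Psmd1, Psmd14 and Psmg4) and 5 fell (Psma5, Psmb8, Psmd3, Psmd9 and Psmg3), and the members' median was -0.0021. Over all genes this scaling gave 1206 rises and 3290 falls, in place of 2180 and 2330. With all 4 controls 2 members rose (Psmd1 and Psme4) and Psmg3 fell. Calls over all genes dropped in that setting too, to 710 rises and 1185 falls of 10408 tested. Without 37 °C replicate B, 8 members rose (Psma2, Psma3, Psmb5, Psmd1, Psmd13, Psmd14, Psme4 and Psmg4), and these were called without each of the other libraries as well. Over all genes 1627 rose and 1892 fell without 37 °C replicate B. In the RefSeq annotation Psma4, Psmd14 and Psme4 overlap another entry.

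**Figure D4:**
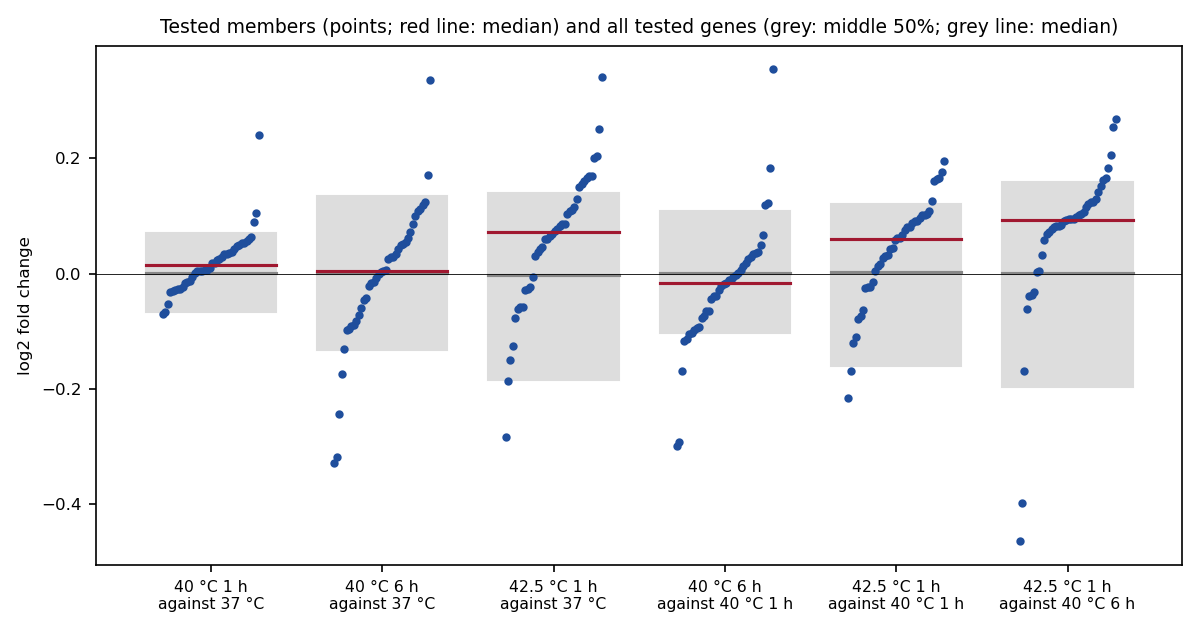
Log2 fold change (vertical axis) of the 40 tested members (points, in order of value) in each of the 6 comparisons (horizontal axis), with the members' median as a red line and the middle 50% and median of all tested genes in grey. The members' median is at 0.072 at 42.5 °C against 37 °C, where that of all genes is at -0.0017, and most members lie within the grey range in each comparison.

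The heated groups were also set against each other, which leaves the controls and replicate D out. Between 6 h and 1 h at 40 °C, 1 of 40 members rose and 2 fell, where 9.45% of all tested genes rose and 9.04% fell. Psmb8 fell, from 33.6, 31.6, 30.2 and 33.9 CPM at 1 h to the levels given above at 6 h, with no overlap. Its log2 fold change was -0.30 (SE 0.066, edgeR adjusted p = 0.0052), and the call held in each of 16 fits. Psmb9 was at -0.29 (SE 0.099, edgeR adjusted p = 0.0498), called in 8 of 16 fits. Psmg3 rose by 0.18 (SE 0.058, edgeR adjusted p = 0.038).

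These 2 smaller calls did not hold without each library. Without 40 °C, 1 h, replicate A, B, C or D, or without 40 °C, 6 h, replicate B or C, Psmb8 alone fell. Over all genes between 623 and 897 fell in these fits, in place of 944. Psmg3 was not called without 40 °C, 1 h, replicate B, C or D or without 40 °C, 6 h, replicate B or C. Over all genes between 647 and 944 rose in those, in place of 987. Without 40 °C, 6 h, replicate A, Psmc6 rose and Psmc5 fell as well, and without replicate B, Psmd6 rose.

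Between 42.5 °C and 40 °C, both for 1 h, 7 of 40 members rose and 2 fell, where 16.4% of all tested genes rose and 19.6% fell. The members that rose were Psma2, Psma3, Psmc6, Psmd1, Psmd14, Psme4 and Psmf1. Psmd14 was at 193, 187, 199 and 203 CPM at 40 °C, all below the 42.5 °C libraries, and its log2 fold change was 0.20 (SE 0.039, edgeR adjusted p = 0.0012). Psmd1 rose by 0.18 (SE 0.035, edgeR adjusted p = 0.0013), again without overlap. Psmg3 fell by 0.22 (SE 0.066, edgeR adjusted p = 0.019) and Psmb8 fell by 0.17 (SE 0.063, edgeR adjusted p = 0.045). Both falls were lost without 40 °C replicate A or without 42.5 °C replicate B or C, and that of Psmb8 also without 40 °C replicate B or D or 42.5 °C replicate A or D. With total counts as the scaling 3 members rose and 5 fell, where 969 and 2790 of all genes did so.

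When 42.5 °C was compared with the longer treatment at 40 °C, 11 of 40 members rose and 1 fell, where 22.5% of all tested genes rose and 24.5% fell. Psmg3 showed the largest difference of the called members. It was at 55.4, 60.2, 54.3 and 52.6 CPM at 40 °C and lower in each 42.5 °C library, with a log2 fold change of -0.40 (SE 0.069, 95% interval -0.54 to -0.25, edgeR adjusted p = 0.00016). The members that rose included the ATPases Psmc1, Psmc3 and Psmc4, the ubiquitin receptor Psmd4, the inhibitor Psmf1 at 0.25 (SE 0.059) and Psmb9 at 0.27 (SE 0.10, edgeR adjusted p = 0.040). With total counts as the scaling 2 members rose and 3 fell, where 1578 and 3180 of all genes did so. Without 40 °C, 6 h, replicate C 7 members rose, where 2010 of all genes did so. Without 40 °C, 6 h, replicate D, Psmc3ip fell as well.

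The inducible and standard forms of a catalytic subunit can be set against each other within a library, which needs no scaling. This was chosen after the values had been seen. Psmb8 had 15.4, 17.9 and 17.7 counts per 100 counts of its standard counterpart Psmb5 in 37 °C replicates A to C, and 16.3 in replicate D. It had 13.4, 12.2, 13.4 and 13.5 after 6 h at 40 °C and 13.9, 13.4, 12.8 and 13.2 at 42.5 °C. Both groups lay below every library of the controls and of the 1 h treatment at 40 °C, the last with 16.7, 15.3, 15.6 and 17.1. At 42.5 °C Psmb8 was at -0.19 and Psmb5 at 0.16 on the log2 scale against 37 °C, so both moved the ratio. After 6 h at 40 °C no standard beta subunit rose or fell.

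The two-sided exact permutation test gave p = 0.057 for either group against the 3 controls, which is the smallest p that 3 against 4 libraries allow, and 0.029 with all 4 controls. Against 40 °C for 1 h both gave an exact permutation p of 0.029. After Benjamini-Hochberg adjustment over the 12 comparisons made (2 ratios in 6 pairs of groups, with 3 controls), each of these was 0.17, and the tests with all 4 controls were not adjusted. Psmb10 per 100 counts of Psmb7, its standard counterpart, was 4.77 ± 0.47 (SD, n = 3) at 37 °C, and 4.38 ± 0.65 after 1 h at 40 °C, 4.02 ± 0.39 after 6 h at 40 °C and 3.997 ± 0.45 after 1 h at 42.5 °C (SD, n = 4 each). Its groups overlapped, and the smallest exact permutation p against the 3 controls was 0.11.

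**Figure D5:**
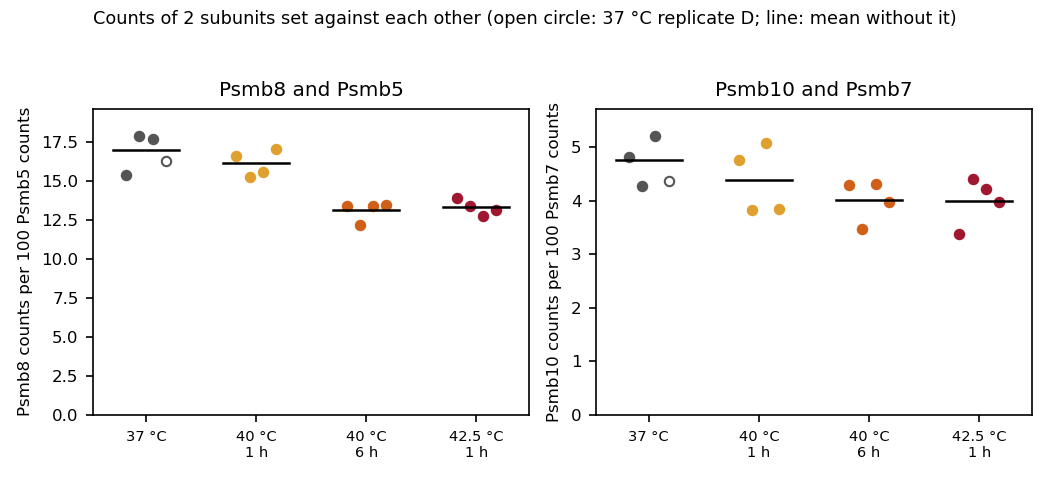
Counts of an inducible catalytic subunit per 100 counts of its standard counterpart (vertical axis, from 0) in each library of the 4 groups (horizontal axis), where the line is the group mean without 37 °C replicate D, shown as an open circle. Psmb8 per 100 Psmb5 lies between 12.2 and 13.9 in the 8 libraries of 40 °C, 6 h, and of 42.5 °C, and between 15.3 and 17.9 in the other 8, while the groups overlap for Psmb10 per 100 Psmb7.

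Genes that work with the proteasome were examined in the same comparisons. A list of 28 such names, of which 24 were found, covers assembly, ubiquitin handling and control of proteasome gene expression. Of those tested, 1 of 23 rose after 1 h at 40 °C, where 1.07% of all tested genes rose. After 6 h at 40 °C 4 of 23 rose and 3 fell, where 14.7% of all tested genes rose and 14.8% fell. At 42.5 °C 12 of 24 rose and 2 fell, where 20.8% of all tested genes rose and 22.3% fell. The rises at 42.5 °C include Nfe2l3, which passed the filter on low counts only where that group took part. These genes were tested without 37 °C replicate D only. Pomp, the maturation factor of the 20S core, was at 0.022, 0.043 and 0.16 on the log2 scale in these comparisons and rose in the last (edgeR adjusted p = 0.0096), though 37 °C replicate D, at 228 CPM, was above the heated mean of 172 CPM. Usp14, a deubiquitinase of the 19S cap, was at 0.077 and -0.10 and rose by 0.25 at 42.5 °C (edgeR adjusted p = 0.0012), where its libraries held 61.4 to 64.8 CPM and 37 °C replicate D was within that range at 63.0 CPM.

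Nfe2l1, a transcription factor known to raise proteasome genes when the proteasome is impaired, was lower in both stronger treatments. It was at 177, 186 and 181 CPM at 37 °C and at 159, 160.1, 150 and 156 CPM at 42.5 °C. These groups did not overlap, but 37 °C replicate D was lower than both, at 133 CPM. The log2 fold change of Nfe2l1 was -0.22 at 42.5 °C (edgeR adjusted p = 0.00040) and -0.20 after 6 h at 40 °C (edgeR adjusted p = 0.0084). Ngly1, which acts on the Nfe2l1 protein, fell by 0.59 at 40 °C for 6 h (edgeR adjusted p = 0.00025), and Pithd1, which can bind the proteasome, rose by 0.35 there (edgeR adjusted p = 0.022). For Pithd1 37 °C replicate D, at 17.4 CPM, lay within the heated range of 15.2 to 20.1 CPM.

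The largest change of this list was that of Zfand2a, whose product binds the 19S cap under stress. Zfand2a was at 19.7, 18.6 and 18.5 CPM at 37 °C and at 281, 410.3, 262 and 565 CPM at 42.5 °C, a log2 fold change of 4.32 (edgeR adjusted p = 4.5e-09). It rose by 1.74 at 40 °C for 1 h, where its level ranged from 33.7 to 93.9 CPM, and was at -0.17 after 6 h. Nfe2l3, a relative of Nfe2l1, was between 0.259 and 0.365 CPM at 37 °C and between 1.28 and 2.62 CPM at 42.5 °C, a log2 fold change of 2.62. This rests on 2 to 29 counts per library, and the control levels lie near the floor of 3 counts. Nfe2l3 passed the filter on low counts only where the 42.5 °C group, in which it was high, took part, so no p is given for it.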

How the data were processed

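Raw counts per gene and library were deposited by the authors, who used CLC Genomics Workbench for trimming, mapping (genome CHOK1GS_HDv1) and counting. Strandedness and the counting of reads with several mapping places are not given in the sources used here, which could affect members that overlap another locus (10 in RefSeq CriGri-PICRH-1.0, another build, used for names and neighbours) or have a close relative. The members and lists were chosen with earlier results of these data known.

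Tests on the counts of 15 libraries used edgeR 4.0.16 under R 4.3.3 (filterByExpr at its defaults, TMM, quasi-likelihood test on the libraries of both groups, Benjamini-Hochberg adjustment over all tested genes, adjusted p under 0.05). There were 3 comparisons with 37 °C, which share their controls, and 3 between heated groups. The study calls the repeats biological but does not say that they were separate cultures. The p-values therefore rest on the spread between these samples, which may be technical. The step was tested on simulated data, in which every gene had the same spread between replicates beyond counting error. No simulated library stood apart as replicate D does. Members with values in every library are those past 1.5-fold in any comparison and, in each comparison with 37 °C, up to 3 called members that rose most and 3 that fell most. Psma3 and Psme4 were added after their values were seen. From the list of partners, Pomp, Adrm1 (not analysed here), Usp14, Nfe2l1 and the 2 called with the largest change are given. Alternatives were DESeq2 1.42.0 (size factors, Wald test), total counts, no filter, 10 counts in every library, 1 fit over all groups, a replicate block, all 4 controls, the 1.5-fold rule and each library left out. The floor of 3 counts is 0.205 to 0.286 CPM per library and covers counting error only. Promoter and protein sequences were not analysed here. One gene of the class I list is not reported here.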

Additional observations from a re-analysis of the deposited data

Results flagged for a closer look

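Values in every library were examined for the 7 members that the naming rule gave and for the members' share of counts, 32 groups of 4 libraries in all, and chance marks about 1 in 20 such groups. In 4 of them 37 °C replicate D was farther from the other controls than Dixon's critical value for 4 samples. These marks come from 1 library that had already been left out and in which most members were higher. They are therefore not separate results to set against that rate. In that library Psmd14 was at 242.6 CPM, Psmd9 at 105.2 CPM and Psmg4 at 23.0 CPM, and the members took 1.06% of all counts.

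Effects of heat on single members differed between durations or temperatures by edgeR's quasi-likelihood test. Between 6 h and 1 h at 40 °C, the difference in log2 fold change was 0.18 for Psmg3, -0.29 for Psmb9 and -0.30 for Psmb8. Between 42.5 °C and 40 °C at 1 h, it was 0.18 for Psmd1, 0.20 for Psmd14, -0.22 for Psmg3 and -0.17 for Psmb8.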

How the results depend on the processing

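The median of the members against 37 °C moved with all 4 controls to -0.089 (40 °C, 1 h), -0.11 (40 °C, 6 h) and -0.011 (42.5 °C), and with total counts to -0.0021 at 42.5 °C, to 0.0034 for 42.5 °C against 40 °C, 1 h, and to 0.039 against 40 °C, 6 h. The 1.5-fold rule gave 0 members in each comparison. Members that fell at 40 °C, 6 h, numbered 2 by DESeq2's Wald test and 1 with all 4 controls, and 1 rose in 1 fit over all groups. Over all genes these settings gave 1296 falls, 556 falls and 1649 rises. At 42.5 °C against 37 °C, 4 rose and 5 fell with total counts, 2 rose and 1 fell with all 4 controls, and 1 fell by the Wald test. There 1206 and 3290, 710 and 1185, and 1947 of all genes did so in turn. For 6 h against 1 h at 40 °C, 2 rose and 4 fell in 1 fit, and 1 fell with total counts. Over all genes 1145 and 1153 did so in 1 fit, and 912 fell with total counts. For 42.5 °C against 40 °C, 1 h, 3 rose and 5 fell with total counts, 12 rose with at least 10 counts per library, 11 rose in 1 fit, and 1 fell with DESeq2's size factors, the Wald test, no filter or at least 10 counts. Over all genes 969 and 2790 did so with total counts, and 1806 rose with at least 10 counts and 1865 in 1 fit. In the settings with 1 fall, 1994, 1799, 2118 and 1958 of all genes fell in turn. For 42.5 °C against 40 °C, 6 h, 2 rose and 3 fell with total counts, 17 rose and 2 fell in 1 fit, and 2 fell with no filter. There 1578 and 3180, 2625 and 2633, and 2680 of all genes did so in turn. The cause was not tested.

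Leaving out each library gave, for rises and falls in turn, 0 and 0 (40 °C, 1 h), 0 to 2 and 1 to 4 (40 °C, 6 h) and 8 to 14 and 1 to 2 (42.5 °C) against 37 °C, then 0 to 2 and 1 to 3 (6 h against 1 h), 5 to 9 and 0 to 2 (42.5 °C against 1 h) and 7 to 13 and 1 to 2 (42.5 °C against 6 h). Over all genes the rises and falls in the same order were 42 to 179 and 21 to 97, 1074 to 1685 and 1018 to 1686, and 1627 to 2209 and 1892 to 2275. Between heated groups they were 647 to 1080 and 623 to 1000, 1361 to 1725 and 1671 to 2032, and 2010 to 2293 and 2256 to 2498. Medians of the members ranged from 0.0071 to 0.024, -0.0060 to 0.023, 0.057 to 0.091, -0.029 to -0.0021, 0.044 to 0.074 and 0.086 to 0.098 in the same order.

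Changes that did not pass the test turned sign with all 4 controls for Psmd1 (-0.0046), Psmd14 (-0.044) and Psmg4 (-0.070) at 40 °C, 1 h, and for Psmd14 (-0.013), Psmg3 (-0.034) and Psmg4 (-0.14) at 40 °C, 6 h. Without 1 library, values ranged from -0.058 to 0.024 (0.015 in 1 other fit above 0) for Psmb8 and from -0.077 to 0.067 for Psmb9 (40 °C, 1 h), from -0.10 to 0.040 for Psmb9 (42.5 °C) and, for 42.5 °C against 40 °C, 1 h, from -0.058 to 0.0080 (also 0.0047) for Psmb9 and from -0.051 to 0.0021 for Psmd9. No called change of the 7 members chosen by the naming rule turned sign in these alternatives.

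Replicate letters are shared by the groups. Deviations of same-lettered libraries correlated between -0.049 and 0.17, over 0.1 in all pairs of no comparison. The main tests therefore did not pair by letter, but weak correlations cannot exclude pairing. For 40 °C, 1 h, against 37 °C the mean correlation was 0.13. A replicate block there gave 381 rises and 253 falls over all genes, in place of 112 and 60, and 0 among the members. For 40 °C, 6 h, against 37 °C it gave 1475 and 1511, in place of 1540 and 1551. With the replicate block 13 members rose and 2 fell at 42.5 °C against 37 °C, 4 fell at 40 °C, 6 h, 2 rose and 3 fell for 6 h against 1 h, and 10 rose for 42.5 °C against 40 °C, 1 h. Over all genes the block gave 2271 rises and 2429 falls at 42.5 °C against 37 °C. It gave 1150 and 1147 for 6 h against 1 h, and 1872 rises for 42.5 °C against 40 °C, 1 h.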

Other observations

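The immunoproteasome supplies peptides to MHC class I molecules, and other genes of that route were looked up after the values of Psmb8 and Psmb9 had been seen. In RefSeq, Psmb8 lies between Tap1 and Tap2, whose products carry the peptides into the endoplasmic reticulum. Of 6 names, 5 were found and 4 were tested. After 6 h at 40 °C 2 of the 4 fell, and at 42.5 °C 1 fell and 1 rose, while none passed the test at 40 °C for 1 h. Over all tested genes 14.8% fell after 6 h at 40 °C, and 22.3% fell and 20.8% rose at 42.5 °C.

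Irf1, a transcription factor of interferon signalling, was at 44.3, 43.6 and 42.3 CPM at 37 °C. It was at 35.5, 32.5, 35.7 and 34.4 CPM after 6 h at 40 °C and at 35.3, 35.4, 33.9 and 34.1 CPM at 42.5 °C, in both below every control, replicate D included at 42.8 CPM. The log2 fold change of Irf1 was -0.34 (edgeR adjusted p = 0.00079) and -0.33 (edgeR adjusted p = 0.00024). Tapbp, which helps to load the peptides, fell by 0.29 at 40 °C for 6 h (edgeR adjusted p = 0.00035) and was at -0.082 at 42.5 °C. In 37 °C replicate D it was at 174 CPM, below each library of the 6 h group. B2M, the light chain of MHC class I, rose by 0.12 at 42.5 °C (edgeR adjusted p = 0.031), and 37 °C replicate D was above those libraries at 202 CPM. Tap1 was at -0.082 after 6 h at 40 °C and at -0.10 at 42.5 °C and did not pass the test.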
